A study of Mus musculus with 12 samples.

Results

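The major replication-dependent histone gene cluster of the mouse lies on chromosome 13, as a pair of gene groups with a run of vomeronasal receptor genes between them. It was read here as all peaks of 3 histone marks whose midpoint fell in 13:21700000-24000000 (GRCm39), a window of 2.3 Mb. Of 332592 peaks on chromosomes 1 to 19, X and Y in 12 peak lists (336278 on all sequences), 821 met this rule, and none was removed by a further filter. The cells were E14TG2a, an established mouse embryonic stem cell line, grown in medium that held serum, LIF and 2 inhibitors, PD0325901 and CHIR99021. They were either wild type (WT) or carried the Alkbh5 del-cIDR allele, which lacks a disordered region of ALKBH5, a demethylase of N6-methyladenosine in RNA. CUT&Tag, which tags chromatin near a bound antibody, gave the H3K4me3 and H3K27ac libraries. CUT&RUN, which cuts chromatin there, gave the H3K9me3 libraries, and each genotype had 2 libraries per mark. The series asks whether disordered regions limit where demethylases act on the genome. The labels do not say how many clones carried the deletion, nor whether the replicates were separate cultures, so each p-value measures only how these libraries vary, and that variation may be technical.

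Replication-dependent histone genes supply the core histones H2A, H2B, H3 and H4 and the linker histone H1 while DNA is copied. They are short, lie close together in many near-identical copies, and their mRNAs end in a stem-loop in place of a poly(A) tail. Their promoters are known for CCAAT boxes and TATA boxes, and those of H2B genes for an octamer bound by Oct-1. Vomeronasal receptors of the Vmn1r family are pheromone receptors of sensory neurons of the nose and are silent in most other cells. H3K4me3 is found at active promoters, H3K27ac at active promoters and enhancers, and H3K9me3 at heterochromatin and silenced repeats.

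The table of genes used here follows GRCm38.p6 and the peaks follow GRCm39, so peaks were not assigned to genes and the order of genes is background only. From Olfr1359 to Carmil1 it lists 260 genes. Before the vomeronasal run it has 34 tRNA genes, the zinc finger gene Zfp184, and 23 histone genes by symbol, 1 of them a pseudogene. H4bc24, next to H2ac24, did not match the symbols searched and is not among the 23. The run holds 75 Vmn1r entries, 39 of them pseudogenes, and 12 other entries. After it come 45 tRNA genes and 32 histone genes, 1 of them a pseudogene. The same side holds the butyrophilin genes Btn1a1 and Btn2a2, the zinc finger gene Zfp322a, Hfe, a regulator of iron uptake, and the solute carriers Slc17a1 to Slc17a4.

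Promoter sequences from RefSeq (GRCm38.p6, chromosome 13, the 250 bases before the start) are shown for the histone genes nearest to the vomeronasal run on each side. Genes of other kinds, tRNA genes among them, lie between these histone genes and the run. Also shown are the first and last vomeronasal genes with an entry, and an H2B gene that held all 3 motifs searched. Whether the annotated starts of the Vmn1r genes are starts of transcription was not checked. A Vmn1r promoter here means only the 250 bases before that start. Capitals mark matches on either strand to the CCAAT box (CCAAT), to the TATA box in the form TATAAA, or to the octamer in the form ATTTGCAT. The motifs do not contain each other, and a promoter was counted once per motif. H2bc11 is the last histone gene before the run, H2bc12 the H2B gene with all 3 motifs, Vmn1r188 and Vmn1r223 the first and last vomeronasal genes with an entry in the table, and H4c8 the first histone gene after the run.
H2bc11: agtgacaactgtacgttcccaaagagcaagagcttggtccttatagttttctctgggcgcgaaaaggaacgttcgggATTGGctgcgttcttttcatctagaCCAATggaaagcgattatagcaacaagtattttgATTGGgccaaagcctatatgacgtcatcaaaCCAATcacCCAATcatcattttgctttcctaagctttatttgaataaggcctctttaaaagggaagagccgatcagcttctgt
H2bc12: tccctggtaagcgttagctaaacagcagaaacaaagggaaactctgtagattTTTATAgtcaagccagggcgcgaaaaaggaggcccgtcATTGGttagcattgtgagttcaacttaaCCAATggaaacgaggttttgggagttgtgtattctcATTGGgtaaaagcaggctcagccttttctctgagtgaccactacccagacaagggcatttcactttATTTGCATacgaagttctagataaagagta
Vmn1r188: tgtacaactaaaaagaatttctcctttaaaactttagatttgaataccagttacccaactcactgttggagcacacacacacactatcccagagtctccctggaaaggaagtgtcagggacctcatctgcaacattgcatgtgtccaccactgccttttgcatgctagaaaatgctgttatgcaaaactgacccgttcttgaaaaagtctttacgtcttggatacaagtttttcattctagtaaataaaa
Vmn1r223: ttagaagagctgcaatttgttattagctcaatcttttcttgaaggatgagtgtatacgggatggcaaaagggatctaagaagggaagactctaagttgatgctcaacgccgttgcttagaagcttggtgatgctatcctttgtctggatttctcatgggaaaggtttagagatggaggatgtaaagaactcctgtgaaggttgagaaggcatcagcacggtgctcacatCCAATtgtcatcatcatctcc
H4c8: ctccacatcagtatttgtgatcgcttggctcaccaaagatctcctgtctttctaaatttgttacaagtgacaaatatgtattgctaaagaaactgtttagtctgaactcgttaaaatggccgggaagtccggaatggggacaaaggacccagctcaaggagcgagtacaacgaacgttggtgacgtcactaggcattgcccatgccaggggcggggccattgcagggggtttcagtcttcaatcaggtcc

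CCAAT stood in 43 of 51 histone promoters (84.3%, from 50 genes), against 11 of 33 Vmn1r promoters (33.3%) and 33.8% of all 32851 promoters in the table. TATAAA stood in 26 histone promoters (51.0%), in 6 Vmn1r promoters (18.2%) and in 12.4% of all. In 10 histone promoters a TATAAA on the gene's own strand lay at -40 to -20 from the start, the usual place of a TATA box, and the match printed for H2bc12 is on the other strand. The octamer stood in 11 histone promoters (21.6%), in 3 Vmn1r promoters (9.09%) and in 1.60% of all. The histone promoters thus held each motif more often than the table as a whole, while the Vmn1r share of CCAAT was close to that of the table. Of the histone promoters 8 held all 3 motifs and 3 held none, among them the one printed for H4c8, and 17 Vmn1r promoters held none. These matches describe letters in the sequence, near-identical copies share them, and nothing was drawn from them about binding. Some histone genes lie back to back, such as H2ac12 and H2bc12, and their stretches hold the same bases on opposite strands. A match there was counted for both genes, so the histone promoters are not independent of each other.

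The window was dense in H3K4me3. It held 80 and 80 peaks in del-cIDR replicates 1 and 2 and 73 and 76 in WT replicates 1 and 2. Of 1171 windows of the same length along the chromosomes, only 10 held more, and their median was 12 against a mean of 77.25 here. Covered length, the bases under peaks, came to 81.3 and 84.2 kb in del-cIDR and 66.6 and 73.5 kb in WT, which per Mb was 3.91 to 4.89 times that of the rest of the genome. The density was higher than elsewhere in all 4 libraries (exact sign permutation, two-sided p = 0.125, the smallest that 4 libraries give).

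H3K27ac was dense as well. The window held 73 and 84 peaks in del-cIDR and 67 and 59 in WT, with a mean of 70.75 against a median of 19.5 in windows of the same length, 32 of which held more. It covered 56.9 and 64.3 kb in del-cIDR and 47.3 and 41.8 kb in WT, 3.18 to 3.36 times the density of the rest of the genome. H3K9me3 was enriched less. It had 62 and 62 peaks in del-cIDR and 38 and 67 in WT, and 63 windows of the same length held more. Its covered length was 42.9 and 53.8 kb in del-cIDR and 15.8 and 50.5 kb in WT, 1.81 to 1.94 times the rest of the genome. WT replicate 1 of H3K9me3 stood apart, with 21705 peaks on the assembled chromosomes against 36766 to 43785 in the other 3 lists, and with the narrowest peaks, a median of 363 bp against 565 to 730 bp.

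Although H3K4me3 peaks were many, they were weak by the authors' fold, the enrichment of a peak over background. Whether that background came from the library itself or from a control is not given in the sources used here. Among the 16093 regions with a peak in all 4 H3K4me3 libraries, the 65 in the window had a median percentile of fold of 22.3 and 19.2 in del-cIDR and 16.5 and 17.1 in WT, where 50 would be typical. Of the 65, 51 lay below the 50th percentile and 2 at or above the 90th. The shared H3K27ac regions were also weak, with medians of 31.3 and 32.0 in del-cIDR and 26.5 and 23.1 in WT, and 34 of 45 below the 50th. The shared H3K9me3 regions lay nearer the middle, with medians of 40.8 and 41.9 in del-cIDR and 44.7 and 35.2 in WT. The histone genes are near-identical copies, so peaks at single copies are uncertain: how reads that match several copies were placed is not given in the sources used here.

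**Figure D1:**
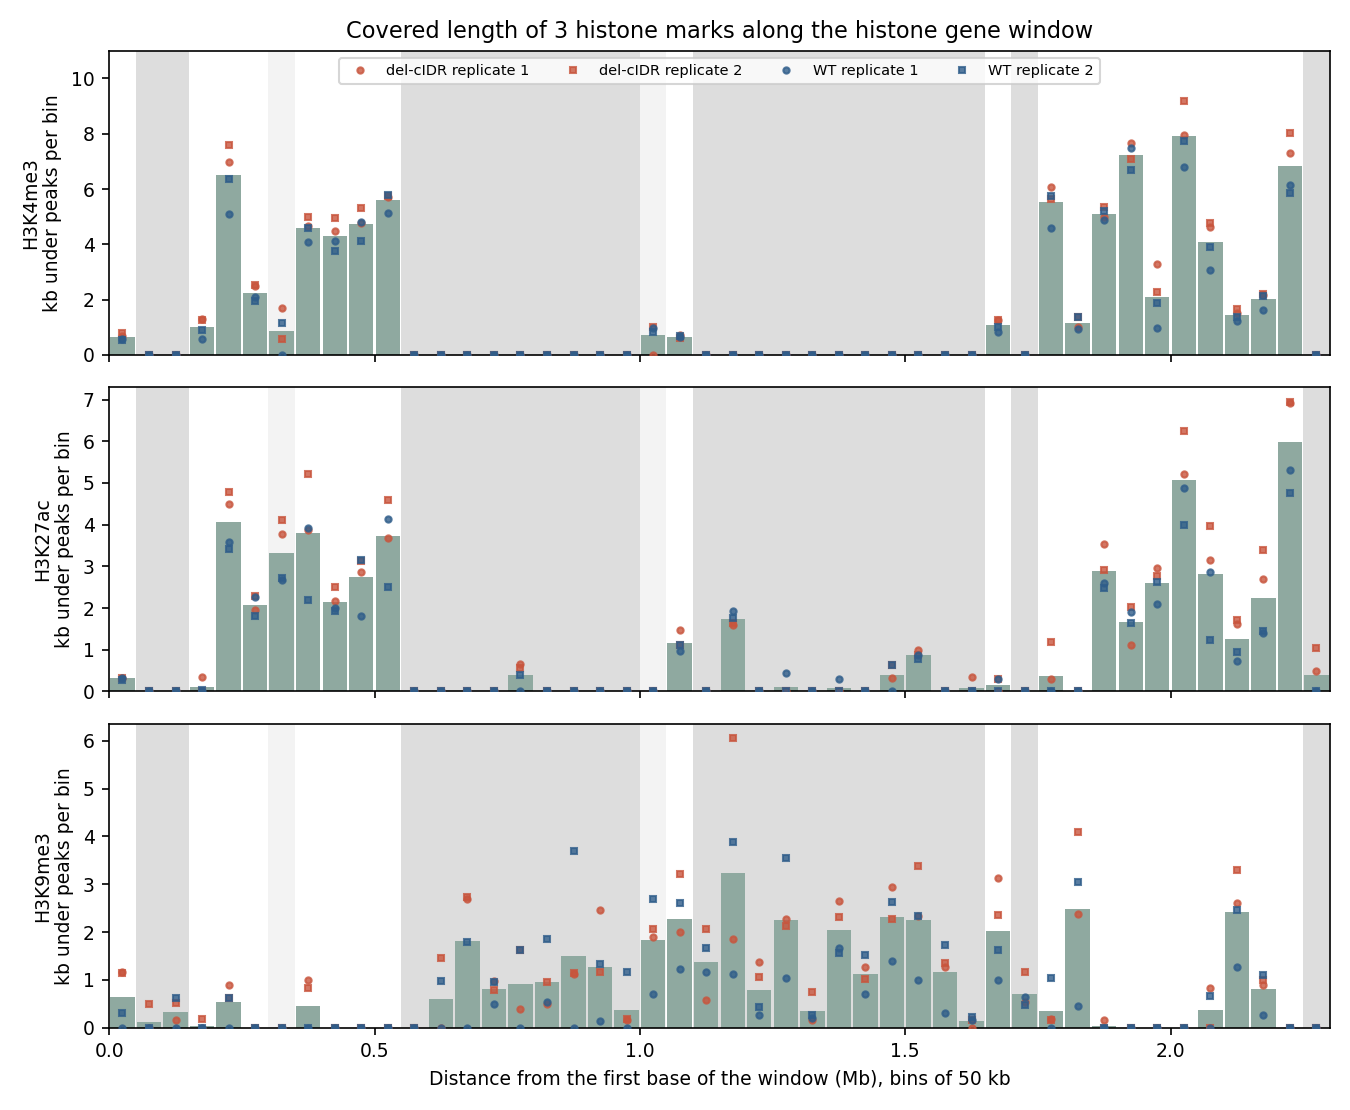
Covered length (kb under peaks) in each of 46 bins of 50 kb along the window, by distance from its first base in Mb, for H3K4me3, H3K27ac and H3K9me3. Bars are means of 4 libraries and points are single libraries; white background marks the 20 active bins, dark grey the 24 silent bins and light grey the 2 intermediate bins, and H3K4me3 fills 2 stretches on either side of a long silent middle where H3K9me3 is spread.

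Along the window the marks fell into 2 active stretches and a silent middle. A bin of 50 kb was called active where all 4 H3K4me3 libraries had a peak midpoint in it, silent where none had, and intermediate otherwise. Of 46 bins, 20 (1 Mb) were active, 24 (1.2 Mb) silent and 2 intermediate. The longest active runs were 21.85 to 22.00 Mb and 22.05 to 22.25 Mb, parted by 1 intermediate bin, and 23.45 to 23.95 Mb with 10 bins. The runs of at least 3 silent bins were 22.25 to 22.70 Mb (9 bins) and 22.80 to 23.35 Mb (11 bins). Between these 2 silent runs lay 1 intermediate and 1 active bin. Shared H3K4me3 regions were closely spaced, with a median gap of 7943.5 bp and 39 of 64 gaps under 10 kb, while the widest gap was 592 kb.

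The bins with most H3K4me3 lay in both active stretches. The bin at 23.70 to 23.75 Mb had 7945 and 9187 bp under peaks in del-cIDR and 6792 and 7741 bp in WT. Next came the bins starting at 23.60 Mb (a mean of 7223 bp), 23.90 Mb (6834 bp), 21.90 Mb (6502 bp) and 22.20 Mb (5590 bp). For H3K27ac, the bin at 23.90 to 23.95 Mb led, with 6924 and 6950 bp in del-cIDR and 5305 and 4753 bp in WT. It was followed by those starting at 23.70, 21.90, 22.05 and 22.20 Mb, so 4 of the 5 leading bins were common to both marks. For H3K9me3, the bin at 22.85 to 22.90 Mb in the silent middle led, with 1846 and 6053 bp in del-cIDR and 1132 and 3884 bp in WT. The replicates of each genotype differed there by more than the genotypes did. The other leading H3K9me3 bins started at 23.50, 23.80, 23.15 and 22.75 Mb, and 3 of these 4 were active bins.

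H3K27ac followed the H3K4me3 classes. In active bins it covered 2435 and 2770 bp per bin in del-cIDR and 2055 and 1778 bp in WT, and in silent bins 183 and 199 bp in del-cIDR and 148 and 148 bp in WT. The means over the 4 libraries were 2259 ± 434 bp and 169 ± 25.8 bp (SD, n = 4), a 13.3-fold difference found in all 4 libraries (exact sign permutation, two-sided p = 0.125). A peak in all 4 H3K27ac libraries was found in 16 of 20 active bins and 2 of 24 silent bins. Per Mb, silent bins held 0.456 to 0.533 times the H3K27ac of the rest of the genome, and active bins 6.35 to 6.65 times.

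H3K9me3 went the other way, but far less steeply. It covered 763 and 845 bp per active bin in del-cIDR and 212 and 675 bp in WT, and 1072 and 1451 bp per silent bin in del-cIDR and 453 and 1429 bp in WT. The means were 624 ± 283 bp in active and 1101 ± 466 bp in silent bins (SD, n = 4), 1.77-fold higher in silent bins, in the same direction in all 4 libraries (exact sign permutation, two-sided p = 0.125). The 2 classes overlap when libraries are not paired, since WT replicate 1 was low in both. The difference, active minus silent, was -477 bp per bin. It was -28.2 bp when peaks and classes were limited to −log10 q of 5 or more (exact sign permutation, two-sided p = 0.25). A peak in all 4 H3K9me3 libraries was found in 14 of 24 silent and 5 of 20 active bins, and a peak in any library in 22 and 12. Per Mb, silent bins held 2.19 to 2.52 times the H3K9me3 of the rest of the genome, and active bins as a whole 1.14 to 1.56 times. The active stretches were unlike in this: from 21.85 to 22.25 Mb H3K9me3 was at 0 to 0.483 times the rest of the genome, and from 23.45 to 23.95 Mb at 1.07 to 1.47 times. These 2 stretches were set after the bins had been seen.

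**Figure D2:**
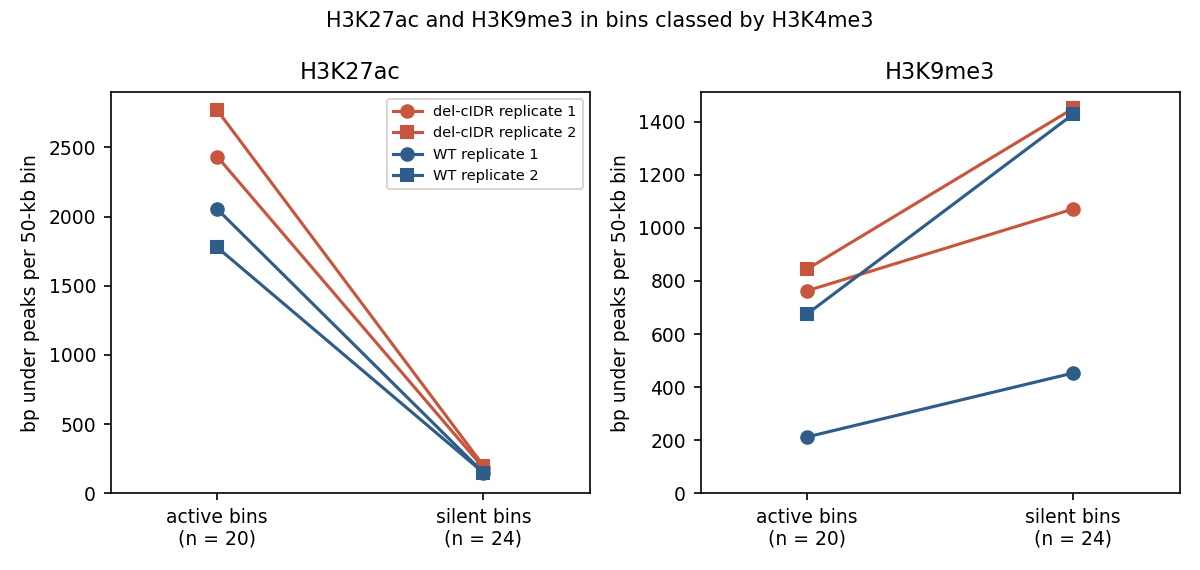
Mean bp under peaks per 50-kb bin in the 20 active and 24 silent bins, for H3K27ac (left) and H3K9me3 (right), with 1 line per library. Every H3K27ac line falls from active to silent bins and every H3K9me3 line rises, and WT replicate 1 of H3K9me3 is the lowest in both classes.

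Single regions were compared between libraries and between marks. Peaks of a mark sharing 1 bp or more across its 4 libraries were joined into regions, 87 for H3K4me3, 103 for H3K27ac and 102 for H3K9me3 in the window. A region was shared when all 4 libraries had a peak in it, which held for 65 H3K4me3 regions (74.7%, against 68.1% genome wide), 45 H3K27ac regions (43.7%, against 26.7%) and 26 H3K9me3 regions (25.5%, against 23.4%). Found in 1 library alone were 8 H3K4me3 regions (9.2%, against 15.4% genome wide), 32 H3K27ac regions (31.1%, against 46.4%) and 46 H3K9me3 regions (45.1%, against 42.3%). The window's H3K27ac regions thus recurred between libraries more often than regions genome wide, while the H3K4me3 shares lay nearer to those of the genome. Neighbouring regions are not independent, and these shares were not tested. None of the 65 shared H3K4me3 regions and none of the 45 shared H3K27ac regions met an H3K9me3 region of any library, against 1.62% and 3.74% of such regions genome wide. At those rates few or no overlaps fall in sets this small, so the counts of 0 are near the background. Of the 65 shared H3K4me3 regions, 32 (49.2%) overlapped a shared H3K27ac region, with 41.7% genome wide. Of the 45 shared H3K27ac regions, 32 (71.1%) lay at a shared H3K4me3 region, with 50.1% genome wide.

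The strongest shared H3K4me3 region was 13:23552652-23553717, in the distal active stretch. Its fold was 16.0 and 15.0 in del-cIDR and 16.6 and 15.8 in WT, at percentile 97.0 on average, and all 4 H3K27ac libraries had a peak there. The region 13:21714729-21715511, near the start of the window, followed with folds of 15.8 and 14.5 in del-cIDR and 16.2 and 16.5 in WT. The third was 13:22767441-22768170, the one shared H3K4me3 region of the silent middle, with folds of 13.3 and 13.6 in del-cIDR and 10.9 and 13.6 in WT and H3K27ac in all 4 libraries. These 3 sites differed by little in fold between genotypes, and the libraries of the 2 genotypes overlapped in fold at the first and the third. At the second the fold was lower in both del-cIDR libraries. Its covered length was 669 and 783 bp in del-cIDR and 567 and 551 bp in WT. The next 5, 13:22129040-22130053, 13:23607100-23608411, 13:23745837-23746810, 13:23482848-23484309 and 13:21894263-21895521, lay between percentiles 77.2 and 59.2.

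The widest shared H3K4me3 regions were weak in fold. The widest, 13:21899961-21903064, spanned 3104 bp, with 3027 and 3051 bp under peaks in del-cIDR and 1834 and 3010 bp in WT, and its fold lay at percentile 3.73. The region 13:23944250-23946492, of 2243 bp, lay at percentile 2.86. Both carried H3K27ac in all 4 libraries. The others were 13:23469372-23471461 and 13:22179600-22181652, with no H3K27ac region, and 13:23595367-23597170, with H3K27ac in all 4 libraries.

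The strongest shared H3K27ac region of the window had no H3K4me3. It was 13:23208471-23209534, in a silent bin of the middle, with folds of 9.30 and 8.63 in del-cIDR and 8.60 and 7.44 in WT, at percentile 87.9. The silent bins held 2 more shared H3K27ac regions, 13:22890933-22891930 and 13:22891965-22893453, which lie side by side and were named after their values had been seen. At the third strongest, 13:23552804-23553554, which overlaps the strongest H3K4me3 region, the folds were 8.63 and 9.92 in del-cIDR and 6.19 and 5.09 in WT, so the genotypes did not overlap there. The others among the first 8 were 13:23585623-23587003, 13:23629621-23631039, 13:23739152-23740400, 13:23745961-23747606, 13:23867246-23868849 and 13:22128927-22130003, all in active bins and all with H3K4me3 in 4 libraries. The widest, 13:23944293-23946683, spanned 2391 bp and overlaps the second widest H3K4me3 region. Of the other wide ones, 13:22153047-22154936 had no H3K4me3 in any library, and 13:22219121-22220967, 13:23595316-23597109 and 13:22049047-22050834 had it in all 4.

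The strongest shared H3K9me3 regions lay in the silent middle. At 13:23119069-23120084 the fold was 6.39 and 7.50 in del-cIDR and 5.61 and 7.14 in WT, percentile 98.0. The next were 13:22420016-22421382, with folds of 4.45 and 5.20 in del-cIDR and 3.81 and 4.93 in WT, and 13:23082113-23082778. After these came 13:23876248-23877345 in the distal active stretch, with folds of 3.76 and 4.42 in del-cIDR and 3.95 and 4.16 in WT, and no H3K4me3 or H3K27ac overlapped it. The genotypes overlapped in fold at each of the 3 whose folds are given. The remaining ones among the first 8 were 13:22641837-22643411, 13:23390748-23391359, 13:23446682-23448180 and 13:23167880-23169426. The widest, 13:22871229-22874332, spanned 3104 bp, but its covered length was 600 and 3069 bp in del-cIDR and 859 and 1921 bp in WT, so it reached its length in a single library. The others were 13:22724133-22726497, 13:23529199-23531463, 13:22788523-22790697 and 13:23820914-23823072, 3 of them in active bins.

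The regions where an active mark met H3K9me3 are named here, and none was shared by all 4 libraries. Their share among all regions of the genome was not counted. At 13:22733352-22734449, in the middle, 3 H3K4me3 libraries had a peak (fold 5.43 in del-cIDR replicate 2 and 6.43 and 5.08 in WT), with H3K9me3 in del-cIDR replicate 1 and WT replicate 2. At 13:22085251-22085672 H3K27ac and H3K9me3 were both called in the 2 del-cIDR libraries, and neither was called in WT. The other 2 were 13:22492256-22493030, with H3K27ac in 3 libraries and H3K9me3 in 1, and 13:22051888-22052388, with each mark in a single library.

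**Figure D3:**
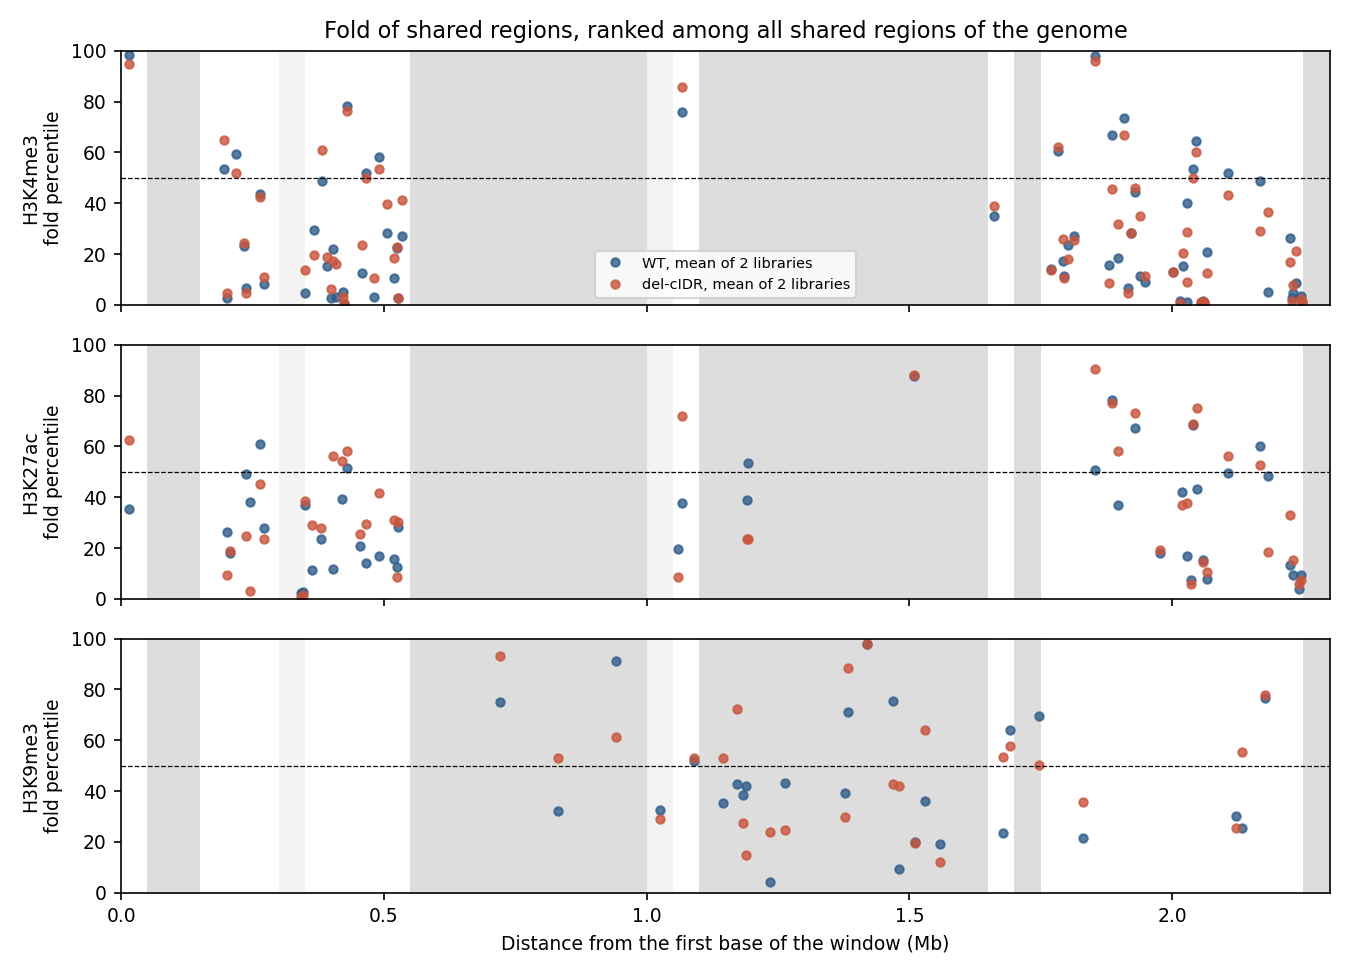
Percentile of fold of each shared region among all shared regions of the genome, by distance from the first base of the window in Mb, as the mean of the 2 WT libraries (blue) and of the 2 del-cIDR libraries (red). Dark grey marks silent bins, light grey intermediate bins and the dashed line the 50th percentile, under which 51 of 65 H3K4me3 and 34 of 45 H3K27ac regions lie.

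Between the genotypes, more of the window lay under H3K4me3 peaks in both del-cIDR libraries than in either WT library. The window held 0.420% and 0.411% of the H3K4me3 peaks in del-cIDR and 0.371% and 0.382% in WT, or 0.416% ± 0.00682 against 0.377% ± 0.00798 (SD, n = 2 each, log2 ratio 0.14). The genotypes did not overlap, at the smallest p that 2 libraries against 2 can give (exact permutation, two-sided p = 0.333). Covered length was 82.7 ± 2.08 kb for del-cIDR against 70.1 ± 4.87 kb for WT (SD, n = 2 each, 1.18-fold, exact permutation p = 0.333). As a share of all bases under H3K4me3 peaks it was 0.412% ± 0.000888 against 0.344% ± 0.0197 (SD, n = 2 each, log2 ratio 0.26, exact permutation p = 0.333). The rest of chromosome 13 held 3.87% of the H3K4me3 peaks in both genotypes (log2 ratio 0.0012), with overlapping libraries.

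In del-cIDR the H3K4me3 peaks of the window were wider, 1.11-fold by their median, and 1.07-fold as many. Median peak width in the window was 966 and 978.5 bp in del-cIDR and 885 and 867.5 bp in WT, while over whole lists the means of the genotypes were 980 and 969.5 bp. Of the 65 shared regions, 27 (41.5%) were longer in both del-cIDR libraries than in both WT libraries, where 18.1% of all shared regions were. Shorter in both were 6 (9.23%), where 21.7% of all were. In 51 of 65 the mean length was greater in del-cIDR, against 46.2% of all shared regions, and the median log2 ratio of length was 0.11 in the window and -0.01 over all. This pattern was noticed in these libraries and is described without a test. Under the 50th percentile of fold the share was alike, with 21 of 51 (41.2%) longer against 20.03% genome wide. Among peaks of −log10 q 5 or more the count was 22 of 57 (38.6%, against 17.8% genome wide), and with lists of equal length 27 of 64 (42.2%, against 17.9%). Without WT replicate 2 it was 42 of 68 (61.8%, against 33.7% genome wide).

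The most lengthened region was 13:22179600-22181652, in the proximal active stretch, with 1182 and 2011 bp under H3K4me3 peaks in del-cIDR and 552 and 522 bp in WT (log2 ratio 1.57). At 13:23935158-23936742, in the distal stretch, the lengths were 1429 and 1585 bp in del-cIDR and 540 and 671 bp in WT (log2 ratio 1.32). At 13:21894263-21895521 they were 1259 and 1259 bp in del-cIDR and 567 and 886 bp in WT (log2 ratio 0.79). At each of these 3, chosen for the size of the difference, the genotypes did not overlap. The region most shortened among the 6 was 13:22158415-22159858, with 974 and 915 bp in del-cIDR and 1365 and 1338 bp in WT (log2 ratio -0.52).

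**Figure D4:**
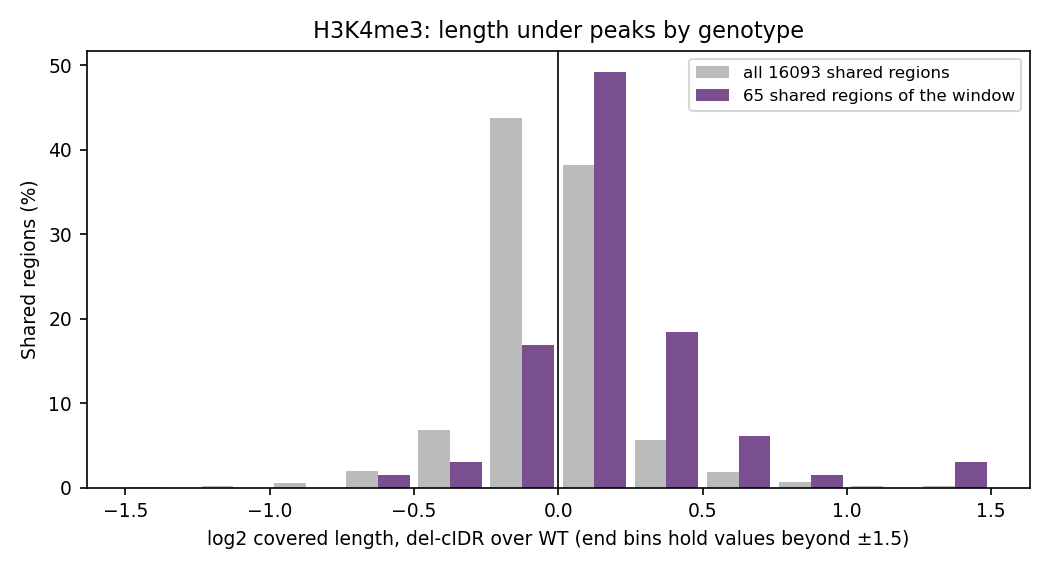
Distribution of the log2 ratio of covered length, mean of the 2 del-cIDR libraries over mean of the 2 WT libraries, for the 65 shared H3K4me3 regions of the window (purple) and all 16093 shared H3K4me3 regions (grey), as percent of regions; the end bins hold values beyond the axis. Of the window's regions 51 lie above 0, against 46.2% of all.

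Both active stretches took part in the difference. In the proximal stretch, 21.85 to 22.25 Mb, H3K4me3 covered 32.0 and 32.9 kb in del-cIDR and 25.9 and 28.5 kb in WT (1.19-fold, exact permutation p = 0.333), and 13 of 26 shared regions were longer in del-cIDR and 3 shorter. In the distal stretch, 23.45 to 23.95 Mb, it covered 46.6 and 47.6 kb in del-cIDR and 37.7 and 41.9 kb in WT (1.18-fold, exact permutation p = 0.333), with 12 of 36 longer and 3 shorter. Genome wide, 18.1% of shared regions were longer and 21.7% shorter. In neither stretch did the genotypes overlap in covered length. In the middle, 22.25 to 23.35 Mb, H3K4me3 covered 0.705 and 1.65 kb in del-cIDR and 1.64 and 1.51 kb in WT, with overlapping genotypes. H3K27ac covered 23.2 and 26.7 kb of the proximal stretch in del-cIDR and 20.4 and 17.8 kb in WT (log2 ratio 0.38, exact permutation p = 0.333). It covered 27.5 and 31.1 kb of the distal stretch in del-cIDR and 21.8 and 19.1 kb in WT (log2 ratio 0.52, exact permutation p = 0.333). Again the genotypes did not overlap in either stretch, but the H3K27ac lists covered more in del-cIDR as a whole. They covered 20.4 and 22.7 Mb in del-cIDR and 17.6 and 15.1 Mb in WT. Taken relative to the rest of the genome per Mb, H3K27ac overlapped between the genotypes in the proximal stretch. In the distal stretch it was 7.34 and 7.48 times the rest in del-cIDR and 6.73 and 6.89 times in WT, without overlap. H3K9me3 covered 1.89 and 1.64 kb of the proximal stretch in del-cIDR and 0 and 0.613 kb in WT, a few peaks whose genotypes did not overlap (exact permutation p = 0.333), with 5 regions, none of them shared. It covered 7.06 and 8.56 kb of the distal stretch in del-cIDR and 2.00 and 8.33 kb in WT (1.51-fold, exact permutation p = 0.667). In the WT library at 0 and 2.00 kb, replicate 1, the H3K9me3 list was short as a whole. H3K9me3 covered 28.9 and 37.9 kb of the middle in del-cIDR and 12.2 and 38.5 kb in WT, with 70 regions, 19 of them shared. These stretches were set after the bins had been seen.

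The fold of the H3K4me3 regions parted the genotypes less. The median percentile of fold of the 65 shared regions was 20.8 ± 2.15 for del-cIDR against 16.8 ± 0.402 for WT (SD, n = 2 each), which are 3.95 percentiles apart (exact permutation p = 0.333). The difference was 1.99 at a −log10 q of 5 or more, with overlapping genotypes (exact permutation p = 0.667), and 9.13 when regions were ranked by −log10 q. The percentile was higher in both del-cIDR libraries for 16 regions, where 19.4% of all shared regions were, and lower in both for 13, where 19.4% of all were. These counts were near the shares of the genome.

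For H3K27ac the covered length was higher in del-cIDR, as it was over the whole lists, which covered 20.4 and 22.7 Mb in del-cIDR and 17.6 and 15.1 Mb in WT. In the window it was 60.6 ± 5.26 kb against 44.6 ± 3.87 kb in WT (SD, n = 2 each, 1.36-fold, exact permutation p = 0.333). As a share of all bases under H3K27ac peaks it was 0.281% ± 0.00344 against 0.272% ± 0.00578 (SD, n = 2 each, log2 ratio 0.04, exact permutation p = 0.333). The share of peaks was 0.253% and 0.251% in del-cIDR and 0.260% and 0.252% in WT (log2 ratio -0.02, exact permutation p = 0.667), so the genotypes overlapped. Of the 45 shared regions, 16 (35.6%) were longer in both del-cIDR libraries, against 35.1% of all, and 3 shorter, against 9.42%. The median percentile of fold was 31.6 ± 0.515 for del-cIDR against 24.8 ± 2.42 for WT (SD, n = 2 each), which are 6.82 apart (exact permutation p = 0.333). The difference was 3.42 at a −log10 q of 5 or more (exact permutation p = 0.667) and 15.7 when regions were ranked by −log10 q. It was higher in both del-cIDR libraries for 10 regions (19.8% genome wide) and lower for 4 (20.5% genome wide).

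For H3K9me3 over the whole window, the WT libraries differed by more than the genotype means. Covered length was 48.3 ± 7.71 kb for del-cIDR against 33.2 ± 24.5 kb for WT (SD, n = 2 each, log2 ratio 0.54, exact permutation p = 0.667). Without WT replicate 1 the log2 ratio was -0.06. The share of peaks was 0.169% and 0.152% in del-cIDR and 0.175% and 0.153% in WT (log2 ratio -0.03, exact permutation p = 0.667). Of 26 shared regions, 11 were longer in both del-cIDR libraries, with 32.3% of all, and 0 shorter, with 3.42% of all. The percentile of fold was higher in both del-cIDR libraries for 8, with 17.9% of all, and lower for 3, with 18.4% of all, and the medians overlapped (a difference of 1.41, exact permutation p = 1). Ranked by −log10 q, the medians were 18.8 apart and did not overlap (exact permutation p = 0.333).

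**Figure D5:**
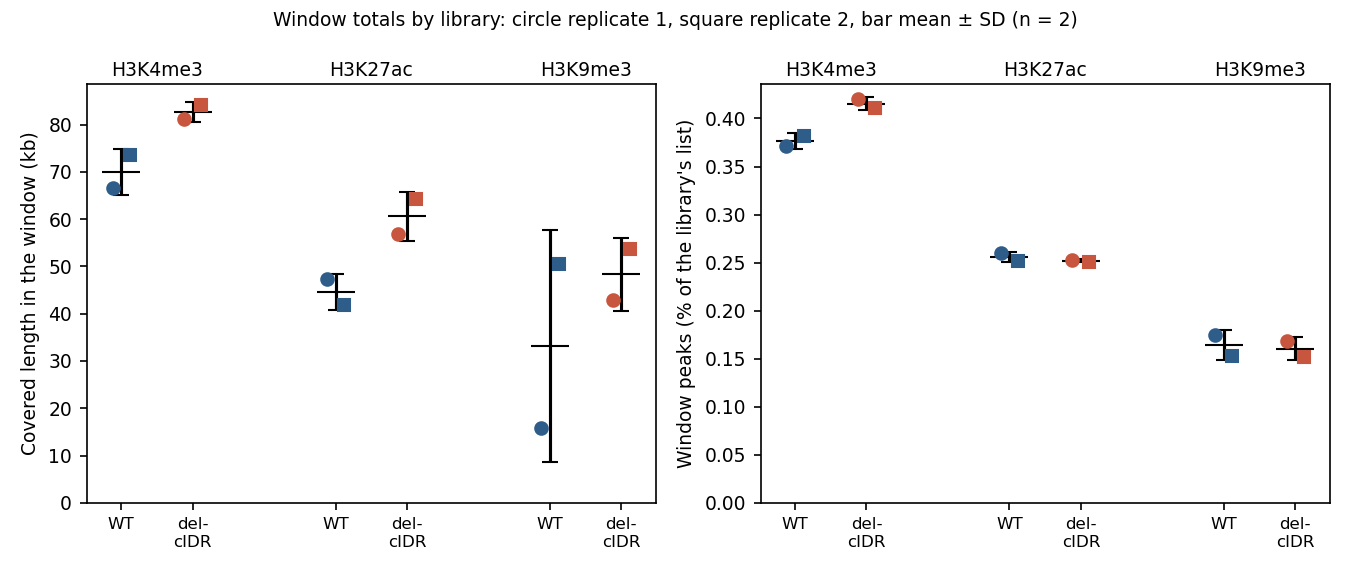
Window totals by library for the 3 marks, with covered length in kb (left) and window peaks as percent of each library's list (right). Circles are replicate 1, squares replicate 2, and bars the mean ± SD (n = 2); for H3K4me3 both del-cIDR libraries lie above both WT libraries in each panel, while the H3K27ac and H3K9me3 genotypes overlap in the right panel.

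Active and silent bins were not shown to differ in their genotype ratio. For H3K27ac the log2 ratio of covered length, del-cIDR over WT, was 0.44 in active and 0.37 in silent bins, a difference of 0.07 (exact permutation p = 0.667). For H3K9me3 it was 0.86 in active and 0.42 in silent bins, a difference of 0.43 (exact permutation p = 0.333). At that smallest p the genotypes did not overlap in each library's ratio of active to silent bins. Per Mb, active bins held 1.56 and 1.31 times the H3K9me3 of the rest of the genome in del-cIDR and 1.14 and 1.19 times in WT. Silent bins held 2.19 and 2.24 times in del-cIDR and 2.44 and 2.52 times in WT. In active bins the H3K9me3 genotypes did not overlap (exact permutation p = 0.333), with WT libraries of 212 and 675 bp per bin. With bins of 25 kb the H3K9me3 difference of log2 ratios was 0.025, with overlapping genotypes (exact permutation p = 0.667). For H3K27ac it was -0.21 with bins of 25 kb (exact permutation p = 1), 0.43 with bins of 100 kb and 0.74 at a −log10 q of 5 or more (exact permutation p = 0.333 for both).

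Sites called in a single genotype were few, and for H3K4me3 and H3K27ac most had a fold under the median of their lists. The call of a single genotype needed a peak in both of its libraries and none in the other 2. For H3K4me3, 1 of 87 regions was found only in del-cIDR (2.08% of all regions genome wide) and 0 only in WT (2.84% genome wide). The one was 13:21905784-21906496, with folds of 3.02 and 4.31 and H3K27ac in all 4 libraries. With 1 library left out the del-cIDR-only count was 4 to 6 and the WT-only count 1. Single regions were not tested.

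For H3K27ac, 7 of 103 regions were found only in del-cIDR, 6.80% against 6.42% genome wide, and 1 only in WT, against 1.83%. The strongest was 13:22015598-22015955, with folds of 7.16 and 8.28 and H3K4me3 in 1 library of each genotype. Beside it lay 13:22014481-22014976, with folds of 3.23 and 4.15. At 3 others all 4 H3K4me3 libraries had a peak, namely 13:22091317-22091925 (folds of 3.69 and 4.38), 13:22098082-22098948 (3.76 and 4.08) and 13:23755128-23756036 (3.00 and 2.87). The last 2 were 13:23899336-23900173, which had folds of 4.98 and 4.74 but no other mark, and 13:22085251-22085672, at 3.10 and 3.96. The region of WT alone, 13:23925989-23926541, had folds of 3.40 and 3.96 and carried neither of the other marks. With 1 library left out 13 to 20 were del-cIDR-only and 2 to 8 were WT-only. Of the 7, 5 lay in the proximal stretch, 2 in the distal stretch and none in the silent middle. These held 41, 46 and 10 H3K27ac regions. At the genome-wide share of 6.42%, few or none fall among 10 regions, so the count in the middle is near the background.

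For H3K9me3, 4 of 102 regions were found only in del-cIDR, 3.92% against 4.51% genome wide, and 2 only in WT, 1.96% against 0.955%. The del-cIDR-only regions were 13:22084431-22086074, with folds of 3.43 and 3.67, 13:21749617-21750488, 13:23388274-23388815 and 13:23392351-23393459. The first of them holds the del-cIDR-only H3K27ac region 13:22085251-22085672. The WT-only regions, both in the silent middle, were 13:23139095-23139773 (folds of 3.65 and 3.58) and 13:23327056-23327346 (folds of 3.87 and 3.83). No region of either active mark overlapped them. The folds given for H3K9me3 lay near the medians of the whole lists, 3.52 and 3.47 in del-cIDR and 3.71 and 3.47 in WT. With 1 library left out the del-cIDR-only count was 15 to 19, but 4 without WT replicate 1, and the WT-only count 2 to 17.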

How the data were processed

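The authors deposited 1 peak list per library, narrow peaks for H3K4me3 and H3K27ac and broad peaks for H3K9me3. The submitters' processing notes name the build GRCm39 and the tools MACS2, BWA, fastp, Picard, SAMtools and featureCounts. Versions, settings and any control library: not given in the sources used here. Per deposited peak the authors give a fold (a ratio over background), the −log10 of p and q, and a score. These were made list by list and were used here only to describe, rank or filter. The smallest −log10 q was 1.30 in the narrow and 1.00 in the broad lists. Read depth is unknown, so no counting error could be given.

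Peaks of chromosomes 1 to 19, X and Y were assigned by midpoint, in coordinates that count from 1, with Python 3.11.15, NumPy 2.4.6, pandas 2.3.3 and Matplotlib 3.10.9, in code tested on simulated data. Peaks of a mark sharing 1 bp or more were joined into regions. Shared regions have a peak in all 4 libraries, and fold was ranked among them within each library. Genotypes were compared by exact two-sided permutation of libraries. Alternatives were a minimum −log10 q of 5, lists of equal length, other overlaps, merging, bins and scales, leaving out each library, and pairing by replicate number.

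Members and lists were chosen with earlier results of these data known. Named regions are, per mark, those called only in 1 genotype, the 8 shared regions highest in fold, the 5 widest, and those where an active mark meets H3K9me3, with the 5 bins of most covered bases and runs of at least 3 silent bins; the most lengthened and shortened H3K4me3 regions were chosen after their values were seen. No annotation of GRCm39 was used, so values at genes and cell type markers were not read, and the cell type label was not checked.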

Additional observations from a re-analysis of the deposited data

How the results depend on the processing

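Over 20 results and 181 alternatives, 133 kept the main value's direction or a count within 1.5 times, 36 moved and 12 reversed. Of the 133, 10 are counts that pairing cannot change. The replicate block cannot change the differences in percentile of fold either, and taking members by any overlap left every value as it was. The H3K4me3 share, covered length and median percentile of fold, the H3K27ac covered length and percentile, and both differences between active and silent bins kept their direction under every alternative run for them. So did the H3K9me3 difference between active and silent bins in genotype ratio. Their sizes moved, and the H3K9me3 difference between active and silent bins (-477 bp) was -28.2 bp at −log10 q of 5. Minimum −log10 q of 5 gave log2 ratios of share of 0.19 for H3K27ac and 1.92 for H3K9me3 (main -0.02 and -0.03), and equal lists 0.13 and 0.079. At −log10 q of 5 no shared H3K9me3 region was left in the window, and the number of peaks behind the 1.92 is not given here. With libraries left out, the H3K9me3 share was 0.04 without del-cIDR replicate 2 and -0.13 to 0.068 over the 4 omissions. H3K9me3 covered length (0.54) was -0.063 without WT replicate 1, up to 1.61 over the omissions, and -0.029 as a share of covered length. Its percentile difference (1.41) was -3.41 to 6.04 with libraries left out, 0.22 with merging and 18.8 by −log10 q; those of H3K4me3 (3.95) and H3K27ac (6.82) were 1.99 and 3.42 at −log10 q of 5, and 9.13 and 15.7 by −log10 q. The H3K27ac difference between active and silent bins in genotype ratio (0.07) was -0.21 with 25-kb bins, 0.43 with 100-kb bins, 0.74 at −log10 q of 5 and -0.030 to 0.18 with libraries left out, and that of H3K9me3 (0.43) 0.025 with 25-kb bins. The H3K9me3 percentile and genotype ratio by class gave no value at −log10 q of 5, for want of regions.

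Counts of regions found only in del-cIDR were, at −log10 q of at least 5, in lists of equal length and with peaks over at least 50% of the region, 4, 3 and 4 for H3K4me3 (main 1), 11, 5 and 14 for H3K27ac (main 7), and 0, 2 and 8 for H3K9me3 (main 4). WT-only counts were 2, 3 and 4 for H3K27ac (main 1), and for H3K9me3 (main 2) 0 at −log10 q of 5 and 1 when merged within 1000 bp. With 1 library left out, so that fewer libraries had to meet the rule, del-cIDR-only counts were 4 to 6 for H3K4me3, 13 to 20 for H3K27ac and 4 to 19 for H3K9me3, and WT-only counts 1 each time, 2 to 8 and 2 to 17. Longer H3K4me3 regions numbered 34 to 42 of 66 to 70, with 28.5% to 35.2% longer genome wide.

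Replicate numbers share only a number. With a replicate block, the log2 ratio of H3K4me3 covered length was 0.24 and of H3K9me3 0.76 (exact permutation p = 0.5, the smallest for 2 pairs), and no call changed. Deviations over 46 bins correlated between same-numbered libraries at -0.14 for H3K4me3, -0.56 for H3K27ac and 0.38 for H3K9me3. Crossed numbers cannot change the del-cIDR-only and WT-only counts, which stay 1 and 0 for H3K4me3 and 7 and 1 for H3K27ac by construction. Unknown depth, 2 libraries a genotype and the cut-off of each list limit all comparisons, and a site under that cut-off is not in a list.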
